A study of Mus musculus with 2 samples.

Results

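The cells described here are Dcn-rich stromal fibroblast-like cells of the mouse testis: 18 cells from a library of mice aged 2 months (young) and 127 from a library of mice aged 24 months (aged), 145 of the 8582 cells that passed the cell filter. Per the labels' protocols, testes were freed of the tunica albuginea, minced, digested with accutase and strained, and the cells, which the labels name stroma cells, were captured on the BD Rhapsody microwell system for whole-transcriptome libraries. Strain, genotype and the number of mice behind a library are not given in the labels, and no treatment other than anaesthesia is named. Each age has 1 library, so cells are not replicates, no p-value can be made, and age cannot be told apart from any other difference between the libraries. Cells were chosen by their counts: a cell was taken as fibroblast-like when Dcn, Col1a1, Col1a2, Col3a1 and Sparc together made up at least 0.5% of its counts and Dcn was detected. It also had to hold less than 1% of counts from the Leydig cell genes Cyp17a1, Ptgds, Hsd3b6 and Star and less than 0.5% from the macrophage genes C1qa, C1qb, C1qc, Csf1r and Adgre1. Cells over a Leydig or macrophage limit are called Leydig-like (1117 young, 614 aged) and macrophage-like (120 young, 71 aged), and the remainder, in which spermatid markers were highest, are called other cells (1515 young, 5000 aged).

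Fibroblasts build and remodel the extracellular matrix, the meshwork of collagens, proteoglycans and glycoproteins around cells. Fibrillar collagens form its cables, collagen type IV and laminins form the sheet-like basement membranes, and decorin, the product of Dcn, is a small proteoglycan that binds collagen fibrils. In the testis, stromal fibroblasts lie in the interstitium between the seminiferous tubules, beside steroid-producing Leydig cells, macrophages, vessels and the peritubular myoid cells that wrap the tubules. Retinoic acid, made by aldehyde dehydrogenases and broken down by Cyp26 enzymes, drives germ cells into differentiation and meiosis.

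The label was held against its 5 markers. Dcn, Col1a2, Col3a1 and Sparc are genes of the rule itself, so their height in these cells follows from the choice. Lumican, the product of Lum and a proteoglycan of collagen fibrils, was not part of the rule, and it goes against the label: Lum gave 1 count in the 18 young cells and 3 counts in the 127 aged cells, 12 (0.304 to 67.0) and 15.1 (3.12 to 44.2) CPM. The unit CPM stands for counts per 1000000, taken after the cells of each class had been added up within their library. The values in parentheses are exact Poisson 95% intervals, intervals of ratios are exact conditional binomial ones, and all cover counting error only. CPM is not scaled by transcript length, so levels are compared between classes and ages for a given gene and not between genes.

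The share of counts from the 5 rule genes varied among the cells of each library. It ran from 1.0% to 3.32% in the young cells (median 1.87%) and from 0.592% to 4.83% in the aged cells (median 1.73%). Just outside, the highest share in a cell with a Dcn count reached 0.107% (young) and 0.478% (aged). No young cell and 17 aged cells lay between 0.5% and 1%, and 7 aged cells with Dcn lay between 0.25% and 0.5%. Among cells with Dcn, only aged ones thus lay close to the limit. Another 2 young and 6 aged cells reached 0.5% without a Dcn count. The Leydig limit kept out 35 young cells and the macrophage limit 2, against 0 aged cells for each. Depth differed more than the share. Young fibroblast-like cells held 3501 to 6679 counts (median 4526.5, with a median of 2260 genes) and 83185 counts in all. The aged cells held 520 to 4604 counts (median 1421, with a median of 958 genes) and 198418 in all. No cell of the young file had fewer than 3215 counts, and 121 of the 127 aged fibroblast-like cells had fewer. The mitochondrially encoded share had a median of 2.28% in the young (1.39% to 3.76%) and 2.76% in the aged cells (0.693% to 24.0%). Of 35 cell numbers found in both files, 0 belonged to a fibroblast-like cell.

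Within these cells, 2 young cells and 1 aged cell stood apart. In the young pair the 4 Leydig genes of the rule made up 0.443% and 0.898% of counts, against at most 0.218% in the other 16 young cells. The pair held 34 of the 36 Cyp17a1 counts and 24 of the 25 Hsd3b6 counts of the young cells, only 9 of their 800 Dcn counts, and no count of Clec3b. The other 16 young cells held 350 of the 472 Sparc counts, 208 of the 221 Col1a2 counts and all 76 Col1a1 counts. Most rule counts of the pair were thus of Sparc, a gene also high in Leydig-like cells. The aged cell held 0.842%, against at most 0.381% in the other 126, but that share is 6 counts, 5 of Ptgds and 1 of Cyp17a1, in a cell of 713 counts with 10 counts of Dcn. These 3 cells are called Leydig-bearing below, and values without them are given where they change a call. Another young cell, of 4588 counts, held all 22 young counts of Ccl2, 15 of 34 of Fbn1 and 10 of 19 of Fn1.

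**Figure D1:**
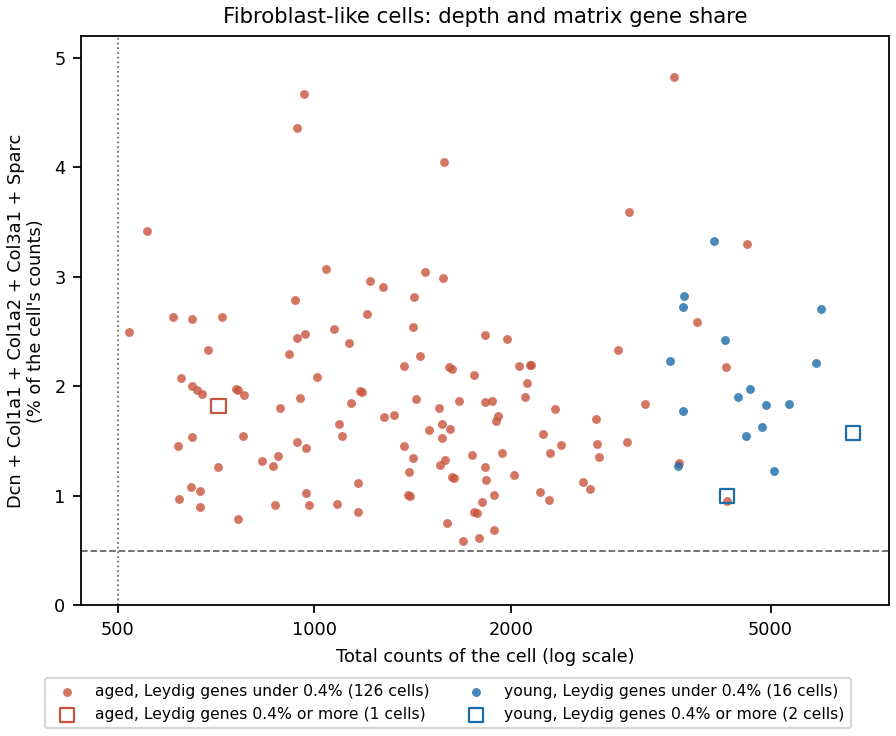
Each point is a fibroblast-like cell, with its total counts on a log axis and the percent of its counts from Dcn, Col1a1, Col1a2, Col3a1 and Sparc. Young cells (blue) all hold 3501 counts or more while most aged cells (red) hold fewer, squares mark the 2 young and 1 aged cells with 0.4% or more of counts from Leydig genes, and the dashed and dotted lines are the limits of 0.5% and 500 counts.

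Set beside Leydig-like and macrophage-like cells of the same library, fibroblast-like cells were high in a broad set of matrix, surface and secreted-protein genes. Of 205 genes with 50 or more counts in the young fibroblast-like cells, 71 (34.6%) lay at least 2-fold above both other classes, and so did 171 of 620 (27.6%) in the aged cells. The smaller of a gene's log2 ratios to the other classes had a median over all these genes of 0.09 (young) and 0.29 (aged). The classes were drawn from the same counts, so this is a description of identity and not a test. The 15 genes that stood furthest above both classes in the aged library were Mgp, Cd34, Col1a2, Dcn, Clec3b, Col1a1, Rarres2, Lama2, Adgrd1, Smoc2, Adamts5, Cd248, Ly6c1, Cyp26b1 and Ltbp4, of which Col1a2, Dcn and Col1a1 belong to the rule. The 5 that stood furthest below were the macrophage genes Ccl8, C1qc, C1qb, Lyz2 and Wfdc17, of which C1qc and C1qb belong to the macrophage limit. Of these, Ccl8, C1qb, C1qc and Wfdc17 had 0 counts in fibroblast-like cells of either library, while Lyz2 had 2 young counts and 1 aged count.

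**Figure D2:**
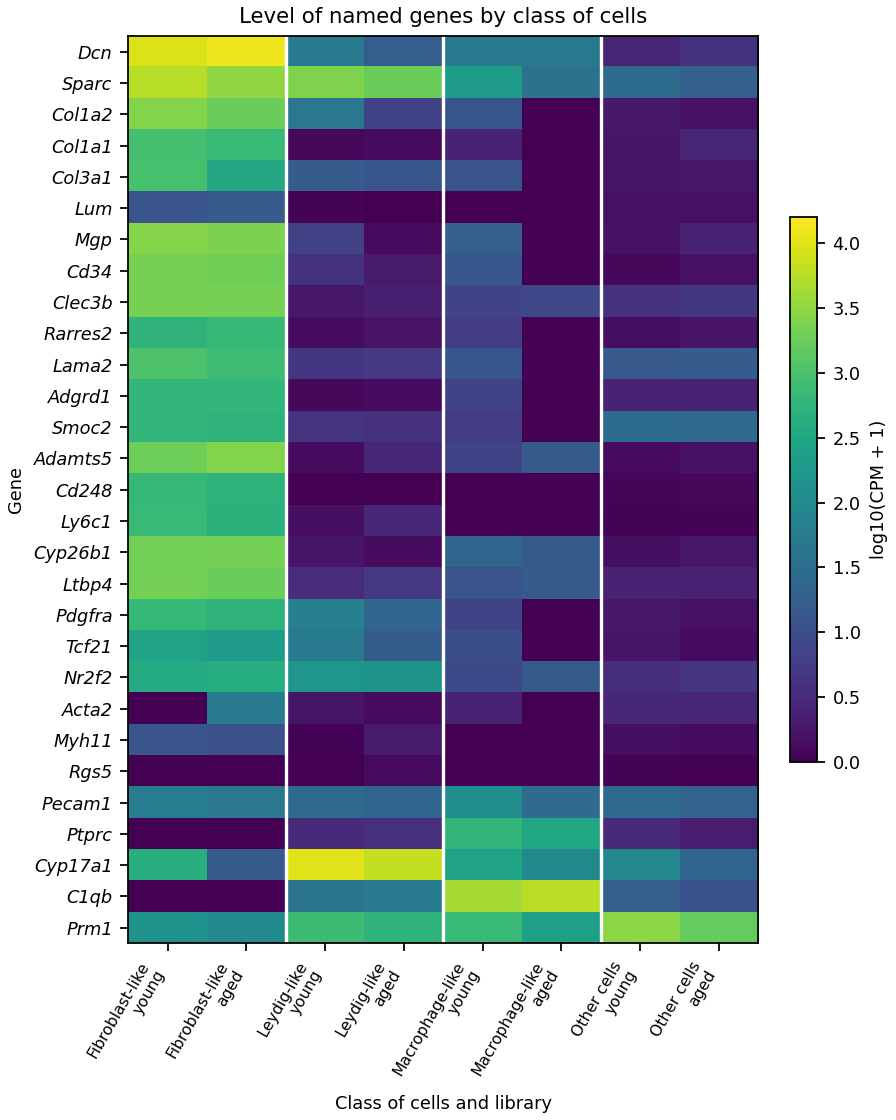
The color gives the level of each gene as log10(CPM + 1) in fibroblast-like, Leydig-like, macrophage-like and other cells of each library. Rows from Dcn to Nr2f2 are bright in the fibroblast-like columns, with Sparc also bright in Leydig-like cells and Lum dim in every class, while Rgs5, Ptprc and C1qb are at 0 in the fibroblast-like columns.

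Small leucine-rich proteoglycans were far above the other somatic classes, chiefly through Dcn, itself a gene of the rule (GRCm38 chromosome 10, 97479609 to 97518143). Dcn was at 9617 (8962 to 10307) CPM in the young and 12418 (11933 to 12918) in the aged cells, against 54.2 and 16.7 CPM in Leydig-like and 55.5 and 49.8 in macrophage-like cells of the young and aged library. Per 10000 counts of a cell, Dcn had a lowest, median and highest value of 5.99, 87.1 and 198 in the young and 9.01, 129 and 351 in the aged cells, so the ages overlapped over most of their range. Biglycan, a proteoglycan close to decorin, followed the same division between classes. Bgn was at 1058 and 1063 CPM in fibroblast-like cells of the young and aged library and at 7.88 and 12.1 in Leydig-like cells. Prelp, a basement membrane anchor, was at 337 and 484 CPM and at 0.597 and 1.31 in Leydig-like cells. Ogn, osteoglycin, was also found in Leydig-like cells at 125 and 348 CPM, against 829 and 806 CPM here. All 3 members with 50 or more young counts and all 5 with 50 or more aged counts lay at least 2-fold above both classes, beside 34.6% and 27.6% of all genes. Lum, Fmod, Aspn and Podn had at most 10 counts in either library.

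Fibrillar collagen genes were low outside these cells, and 3 of them belong to the rule. Col1a2 was at 2657 (2318 to 3031) CPM in young and 1799 (1617 to 1996) CPM in aged cells, with 45.9 and 5.89 CPM in Leydig-like cells. Col1a1, its partner in type I collagen, was at 914 (719.8 to 1144) CPM in young and 675 (566 to 799.9) CPM in aged cells, with 0.239 and 0.327 in Leydig-like cells. Col3a1 was at 962 (763 to 1197) CPM in young and 343 (266 to 434) CPM in aged cells, with 14.8 and 12.1 in Leydig-like cells. The type V gene Col5a1 was sparse, at 108 and 101 CPM from 9 and 20 counts. Summed over the 7 genes of the list, fibrillar collagens stood at 4700.4 and 2999 CPM, against 76.7 and 41.9 in Leydig-like and 27.8 and 0 in macrophage-like cells. Type VI collagen, a microfilament of the pericellular matrix, was present through Col6a1 (745 and 524 CPM) and Col6a2 (541 and 272 CPM). Col6a1 was also found in Leydig-like cells, at 57.1 and 119 CPM, and Col6a2 was almost absent there, at 0.478 and 0.982.

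The promoter windows of 3 genes whose levels are compared below are shown, since Col1a2 and Col3a1 lead the fibrillar collagens and C3 is the gene of the complement group that differed most between the ages. Each is the 250 bases before the gene's start in the RefSeq table for GRCm38.p6, 5′ to 3′ on the gene's strand. They lie at chr6:4505368-4505617 on the plus strand (Col1a2), chr1:45311288-45311537 on the plus strand (Col3a1) and chr17:57228137-57228386 on the minus strand (C3). Capitals mark the matches to the motifs searched on both strands.
Col1a2: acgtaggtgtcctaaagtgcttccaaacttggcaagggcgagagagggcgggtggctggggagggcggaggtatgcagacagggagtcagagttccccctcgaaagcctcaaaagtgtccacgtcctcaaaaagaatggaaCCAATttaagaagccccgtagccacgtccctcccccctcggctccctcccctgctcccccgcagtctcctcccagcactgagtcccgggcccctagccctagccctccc
Col3a1: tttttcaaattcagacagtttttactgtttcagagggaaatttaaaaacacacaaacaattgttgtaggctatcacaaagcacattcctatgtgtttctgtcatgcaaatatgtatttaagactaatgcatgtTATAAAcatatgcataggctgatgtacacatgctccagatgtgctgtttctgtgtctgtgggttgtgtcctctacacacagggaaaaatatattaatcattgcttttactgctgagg
C3: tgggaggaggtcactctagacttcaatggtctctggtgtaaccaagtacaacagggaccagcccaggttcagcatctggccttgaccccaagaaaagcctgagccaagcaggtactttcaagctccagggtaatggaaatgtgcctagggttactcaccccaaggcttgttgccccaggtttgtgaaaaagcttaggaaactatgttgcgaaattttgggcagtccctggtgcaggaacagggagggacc
A first motif searched was CCAAT, read by the factor NF-Y. The next was TATAAA, a form of the TATA box. The last was TGANTCA, the AP-1 site of Fos and Jun proteins. No match overlapped another. Col1a2 held CCAAT 109 bases before the start, as did 33.8% of the 32851 promoters of the table in windows of the same length. Col3a1 held TATAAA 117 bases before the start, a motif found in 12.4% of the promoters. The C3 window held none of the 3 motifs, and TGANTCA, found in 6.75% of all promoters, was in none of these 3 windows. A match describes letters only.

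Genes that process collagen differed among themselves in how they divided the classes. Few had 50 or more counts, and 0 of 1 young and 1 of 2 aged such members lay at least 2-fold above both classes. So few members cannot be told apart from the 34.6% and 27.6% over all genes. Pcolce, an enhancer of procollagen cleavage, was at 926 and 605 CPM here and at 1448 and 1189.7 in Leydig-like cells. Adamts2, which trims the amino end of procollagen, differed more, with 529 and 343 CPM here and 0.717 and 0 there. Serpinh1, a chaperone of procollagen, was at 337 and 197 CPM, and Bmp1, which trims the carboxyl end, at 264 and 176 CPM. The list of 15 genes summed to 2897 and 1940.3 CPM, against 1710.2 and 1435 in Leydig-like cells.

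Basement membrane genes were high beside the other somatic classes. Both young and all 7 aged members with 50 or more counts lay at least 2-fold above both classes, with medians of the smaller log2 ratio of 5.05 and 5.04 against 0.09 and 0.29 over all genes. Lama2, the laminin chain of muscle and stromal basement membranes, was at 1058 (848 to 1303) CPM in young and 776 (658 to 909) CPM in aged cells, with 3.70 and 4.25 CPM in Leydig-like and 13.7 and 15.6 in other cells. Col4a1 was at 757 and 575 CPM against 56.6 and 35.7 in Leydig-like cells, Lamb1 at 565 and 353 CPM against 43.0 and 27.2, and Lamb2 at 529 and 454 CPM against 59.6 and 72.7.

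Among elastic fibre and microfibril genes, Ltbp4, which holds latent TGF-beta in the matrix, was at 2116 (1815 to 2452) CPM in young and 1794 (1613 to 1991) CPM in aged cells, with 2.39 and 3.93 in Leydig-like cells. Efemp1 (fibulin-3) was at 445 and 575 CPM and the microfibril gene Mfap5 at 385 and 307 CPM. Among matricellular genes, Mgp, matrix Gla protein and an inhibitor of calcification, was at 2777 (2430.4 to 3159) CPM in young and 2328 (2121 to 2551) CPM in aged cells, with 5.37 and 0.327 in Leydig-like and 17.0 and 0 in macrophage-like cells. Sparcl1 was at 2320.1 and 2409 CPM, with 455 and 153 in Leydig-like cells. Smoc2, a calcium-binding matrix protein, was at 577 and 544 CPM and was also found in other cells at 29.1 and 26.0. Ccn2, a matricellular gene also known as connective tissue growth factor, was at 1635 and 1028 CPM, with 0.717 and 0.655 in Leydig-like cells. Sparc, a rule gene, divided the classes least among the 5 markers, at 5674 and 3226 CPM here and 2436 and 1789.7 in Leydig-like cells.

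Of the matrix proteases and their inhibitors, Adamts5, an aggrecanase, was at 1875 (1593 to 2194) CPM in young and 2636 (2415 to 2872) CPM in aged cells and at 0.358 and 1.96 in Leydig-like cells. Timp2, an inhibitor of matrix metalloproteinases, was shared by all somatic classes, at 4508 and 4611 CPM here, 1817 and 2001 in Leydig-like and 1003 and 2027 in macrophage-like cells. Mmp2, a gelatinase common in fibroblasts elsewhere, gave only 3 and 13 counts.

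Surface genes drew a profile with Cd34, Ly6a and Pdgfra and without Thy1, Dpp4 or Cd44. Cd34, a sialomucin of progenitors, vessels and stromal fibroblasts, was at 2152 (1848 to 2491) CPM in young and 1961 (1770.5 to 2165) CPM in aged cells, with 3.10 and 0.982 in Leydig-like and 12.3 and 0 in macrophage-like cells. After each cell was thinned to 500 counts, a depth every cell reached, 61.1% of young and 57.6% of aged fibroblast-like cells would hold a Cd34 count, against 0.177% and 0.0479% of Leydig-like cells. Unthinned, 17 of 18 and 107 of 127 cells held one. Ly6a, which encodes the stem cell antigen Sca-1, was at 1779 and 1512 CPM, with 3.94 and 24.9 in Leydig-like and 119 and 377 in macrophage-like cells. Pdgfra, the platelet-derived growth factor receptor of stromal cells, was at 649 (488 to 847) CPM in young and 534 (437 to 646) CPM in aged cells, with 66.4 and 22.3 in Leydig-like cells. Cd248 (endosialin) was at 637 and 524 CPM and had 0 counts in Leydig-like and macrophage-like cells of both libraries. Ly6c1 was at 697 and 504 CPM and the adhesion receptor gene Adgrd1 at 613 and 595 CPM. Pi16, a peptidase inhibitor that marks a fibroblast subset in other organs, was found in 7 young and 20 aged cells, at 264 and 146 CPM. Cd44 and Dpp4 had 0 counts, Thy1 had 1 young and 0 aged counts, and Pdgfrb had 2 young and 0 aged counts.

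Transcription factors of mesenchyme were present at low counts. Nr2f2 (COUP-TFII), a factor of interstitial and steroidogenic lineages, was at 385 and 393 CPM, with 157 and 148 in Leydig-like cells. Tcf21, which marks gonadal mesenchyme, was at 264 and 212 CPM against 50.8 and 16.4. Ebf1 was at 337 and 302 CPM against 31.2 and 38.3. Gata4, shared by gonadal somatic lineages, was close in both classes, at 144 and 171 CPM here and 123 and 113 in Leydig-like cells. Klf4 was at 2260.0 and 2530.0 CPM and also high in macrophage-like cells, at 1215 and 1486.

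Among signalling genes, Id3, a target of BMP signals, was at 1671 (1405 to 1973) CPM in young and 2495 (2279.8 to 2724) CPM in aged cells, with 7.88 and 52.0 in Leydig-like cells. Fstl1, a secreted follistatin-like protein, was at 709 and 619.9 CPM against 1.07 and 1.64. The TGF-beta co-receptor gene Tgfbr3 was at 469 and 348 CPM against 193 and 155. In the Hedgehog pathway, the co-receptor genes Gas1 and Boc were at 240.4 and 353 CPM and at 156 and 161 CPM, the target Gli1 at 84.1 and 80.6 CPM against 1.19 and 1.64, and the receptor gene Ptch1 at 36.1 and 106 CPM against 45.3 and 65.5. Wnt modulators were sparse: 8 of 12 members had 0 counts in the young and 6 of 12 in the aged cells, and Rspo1 gave 6 and 14 counts.

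Secreted and lipid-binding proteins were high here, summing to 34562 and 41024 CPM against 11668 and 9086 in Leydig-like and 10524 and 25277 in macrophage-like cells. Of the list's members with 50 or more counts, 7 of 10 in the young and 9 of 14 in the aged cells lay at least 2-fold above both classes. Over all genes with 50 or more counts these shares were 34.6% and 27.6%. Gsn, the actin-severing gelsolin, was at 11168 (10461 to 11909.7) CPM in young and 10382 (9939 to 10840.4) CPM in aged cells, with 72.3 and 67.1 in Leydig-like and 167 and 107 in macrophage-like cells. Igfbp6, a binding protein for insulin-like growth factor 2, was at 3799 (3391 to 4242) CPM in young and 4395 (4108 to 4696) CPM in aged cells, with 222 and 186 in Leydig-like cells. Clec3b (tetranectin, a plasminogen-binding protein) was at 2199.9 (1893 to 2543) CPM in young and 2182 (1982 to 2398) CPM in aged cells, with 0.836 and 1.31 in Leydig-like cells. Rarres2, which encodes the chemoattractant chemerin, was at 529 and 655 CPM against 0.358 and 0.655. Cst3, cystatin C, did not divide the classes, at 3258 and 5367 CPM here, 7201 and 5779 in Leydig-like and 3640.3 and 7418 in macrophage-like cells.

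Complement and its inhibitors were represented as well. Serping1, the C1 inhibitor, was at 4628 (4177 to 5114) CPM in young and 6370.4 (6024 to 6732) CPM in aged cells, with 314 and 192 in Leydig-like and 37.0 and 49.8 in macrophage-like cells. The C1s protease gene C1s1 was at 878 and 716 CPM against 93.7 and 72.0 in Leydig-like cells, and C2 at 733 and 711 CPM against 746 and 453. Of factors that act on neighbouring cells, Igf1 was at 889.6 (699 to 1117) CPM in young and 479 (387 to 585) CPM in aged cells, with 5.61 and 7.2 in Leydig-like and 316 and 505 in macrophage-like cells. Csf1, the growth factor of macrophages, was at 421 and 403 CPM against 82.3 and 65.8 in Leydig-like cells. Kitl, the ligand of the receptor Kit of germ cells, was at 325 and 242 CPM against 121 and 117, and the chemokine gene Cxcl12 was at 469 and 373 CPM against 312 and 258.

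The retinoid enzymes split between making and breaking retinoic acid. Cyp26b1 (GRCm38 chromosome 6, 84571414 to 84593908), which breaks it down, was at 2032 (1737 to 2362) CPM in young and 2071 (1876 to 2282) CPM in aged cells, against 0.717 and 0.327 CPM in Leydig-like, 21.6 and 14.2 in macrophage-like and 0.474 and 0.899 in other cells. Aldh1a1, which makes it, was at 3691 (3289 to 4127) CPM in young and 3704 (3441 to 3982) CPM in aged cells, below the 8918 and 10755 of Leydig-like cells and above the 194 and 107 of macrophage-like cells. Thinned to 500 counts, 52.5% of young and 44.0% of aged fibroblast-like cells would hold a Cyp26b1 count, against 0.0427% and 0.0566% of Leydig-like cells. Unthinned, 15 of 18 and 76 of 127 cells held one, with median totals of 4526.5 and 1421 counts against 7031 and 4796.5 in Leydig-like cells. Aldh1a1 was found in 18 young and 117 aged cells, and 15 young and 74 aged cells held counts of both genes.

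Immediate early genes, which respond to stimuli within minutes and are known to come up during tissue dissociation, were high in every somatic class. Their sum was 30763 and 40500.4 CPM here, 10285 and 13903 in Leydig-like and 35434 and 39565 in macrophage-like cells. Fos was at 4881 (4417 to 5379) CPM in young and 7116 (6749.9 to 7497) CPM in aged cells, Jun at 3655 and 4763 CPM and Junb at 3029 and 3820.2 CPM. The part of the digestion in these levels was not tested. Interferon and MHC class I genes summed to 4352 and 5609 CPM here and 8719.7 and 15583 in macrophage-like cells. Among them B2m, the light chain of MHC class I, was lower here, at 1382 and 1865 CPM against 4027 and 5427, and Ifitm3, an antiviral membrane protein, was higher, at 1166 and 1487 CPM against 134 and 356.

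Leukocyte markers were at 0, and markers of most other cell types were low in level. Peritubular myoid, pericyte and endothelial sums were nonetheless above those of Leydig-like cells in both libraries. Over the 7 macrophage markers, 6 had 0 counts in each library and the sum was 24.0 and 5.04 CPM, against 19839 and 33292 in macrophage-like cells. C1qa, C1qb, C1qc, Csf1r and Adgre1 among them define the macrophage limit, so their low counts follow in part from the choice. All leukocyte markers found in the files had 0 counts. Peritubular myoid markers summed to 48.1 and 156 CPM, against 12.2 and 11.8 in Leydig-like and 84.0 and 56.7 in other cells. They gave 0 young and 10 aged counts of Acta2, of which 7 lay in 1 cell, and 2 and 16 counts of Des. Of 6 pericyte markers, 5 had 0 counts in the young and 4 in the aged cells, Rgs5 and Notch3 among them in both. Cspg4 had 2 and 12 counts and Abcc9 0 and 8. Cells with a count of the list numbered 2 young and 15 aged, and it summed to 24.0 and 101 CPM, above the 1.55 and 2.62 of Leydig-like cells, and the part of pericytes was not tested. Endothelial markers summed to 144 and 116 CPM, against 31.8 and 28.5 in Leydig-like and 122 and 35.6 in macrophage-like cells. Pecam1 gave 5 and 9 counts. The 8 Sertoli markers summed to 613 and 398 CPM against 6342 and 5228 in Leydig-like cells, and mesothelial markers to 0 and 30.2. Spermatid transcripts, which free RNA can spread, summed to 697 and 363 CPM here against 9053 and 5094 in other cells and 2121 and 1471 in Leydig-like cells. Leydig markers summed to 1250.2 and 323 CPM against 22811 and 17336 in Leydig-like cells. Cyp17a1, Hsd3b6 and Star among them belong to the Leydig limit, so this division also follows in part from the choice. Star, a cholesterol carrier of steroid synthesis, was at 228 and 247 CPM, and its sharing between cells differed from that of Cyp17a1. Without the pair of Leydig-bearing young cells Star kept 14 of its 19 young counts, while Cyp17a1 kept 2 of 36.

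**Figure D3:**
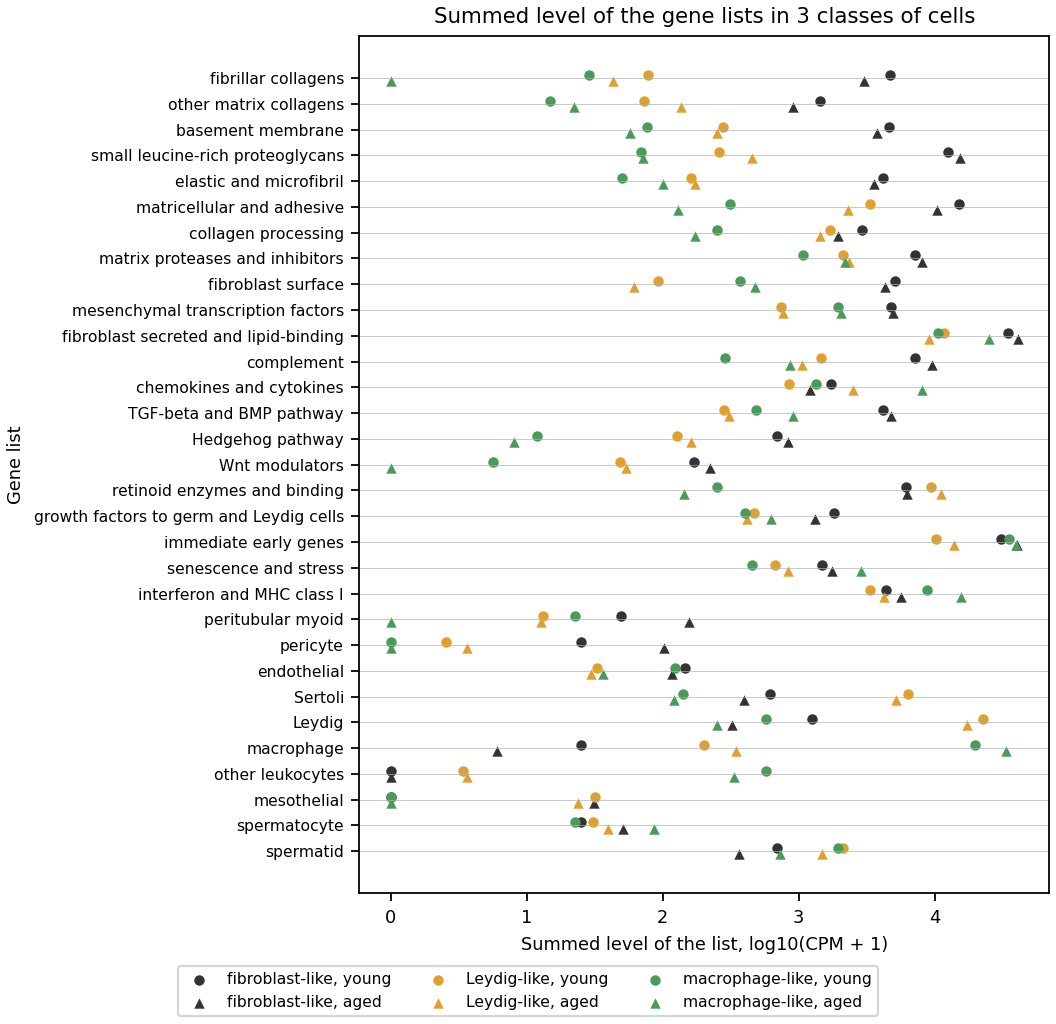
Each row is a gene list and each symbol its summed level, log10(CPM + 1), in fibroblast-like (black), Leydig-like (orange) and macrophage-like (green) cells, with circles for the young and triangles for the aged library. The matrix lists at the top sit furthest right in black, the immediate early genes overlap with macrophage-like cells, and the black symbols of the macrophage and other leukocyte lists sit at the left.

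The cells varied among themselves in which of them held Clec3b, Pi16, Col15a1 or Apod. Clec3b was found in 15 young and 92 aged cells. In the aged cells with it, Dcn stood at 13567 CPM and Igfbp6 at 4948, against 8824 and 2664 in the 35 cells without it. The median total was 1488.5 counts with and 1168 without. All 7 young and 18 of 20 aged cells with Pi16 also held Clec3b, beside 15 of 18 and 92 of 127 over all cells. Cells with Pi16 were the deeper ones in the aged library, with a median of 2027 counts against 1372. Col15a1 was held by 1 of 20 aged cells with Pi16 and 30 of 127 over all aged cells, and by 1 of 7 young cells with Pi16 and 3 of 18 over all young cells. Aged cells with Apod held Clec3b at 3559 CPM and Col1a1 at 1446, and those without it 1686 and 398. Their median total was 1911 counts against 1372, and detection depends on depth. The sums lean on a few deep cells: the aged cells with 32, 31 and 25 Clec3b counts all held Apod. The cell with 31 also held 25 Col1a1 counts, against 109 in all other aged cells. In sparse counts these groupings are descriptions, and the aged cells come from 1 library.

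Between the ages, fibroblast-like cells made up 0.650% of cells in the young library (18 of 2770, exact Clopper-Pearson 95% interval 0.386% to 1.03%) and 2.19% in the aged library (127 of 5812, 1.82% to 2.59%). Among the 3 somatic classes they were 1.43% of 1255 young cells (0.852% to 2.26%) and 15.6% of 812 aged cells (13.2% to 18.3%). The files do not hold the same range of depths. When 3215 counts, the young minimum, were required in both libraries, 6 aged fibroblast-like cells were left and the aged share was 0.144%, so that the ratio of the shares turned from 3.36 to 0.221. The difference in share therefore cannot be told apart from the difference in cell totals.

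Within fibroblast-like cells, the aged library was higher in the complement gene C3, the apolipoprotein genes Apod and Apoe and the basement membrane collagen Col15a1, and lower in Fn1, Col3a1, Ccn1 and Fbn1. In the 6 aged cells that reach the young minimum of 3215 counts, the ratios of Col15a1 and Fbn1 were near equality and those of C3 and Apoe smaller. The Col15a1 and C3 ratios rest there on 1 and 4 aged counts. Their intervals also hold the ratios over all cells, so this setting cannot decide whether these 2 differences shrank. For Apoe and Fbn1 the ratios there were 1.83 (1.07 to 3.07) and 0.910 (0.384 to 1.94). Those intervals leave out the ratios over all cells, 4.18 and 0.358, so these 2 differences were smaller in that setting. Most genes lay within 2-fold of equality: of 2783 genes with 20 or more counts over both libraries, 166 (5.96%) were at least 2-fold higher and 157 (5.64%) at least 2-fold lower in aged cells, by size alone, and the median log2 ratio was -0.08. Centred on that median, the counts were 198 and 127, which moves the share of higher genes among those past 2-fold from 51.4% to 60.9%. With 50 or more counts required, 31 and 27 were left. In counts simulated at the summed depths of these cells, 6.75% of unchanged genes with 20 or more counts were past 2-fold in either direction. That share comes from counting error alone, so the numbers of genes past 2-fold include such genes. Dcn itself, a gene of the rule, was 1.29 (1.19 to 1.40) times as high in the aged cells, or 1.13 times without the 3 Leydig-bearing cells, while Cd34, Clec3b, Cyp26b1, Aldh1a1, Bgn and Gsn lay near equality, with ratios of 0.911, 0.992, 1.02, 1.0, 1.01 and 0.930. In the 6 aged cells of 3215 counts or more the ratio of Dcn was 1.61 (1.42 to 1.82) and that of Clec3b 1.90 (1.47 to 2.43). Cyp26b1 was 2.23 (1.43 to 3.66) times lower there.

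**Figure D4:**
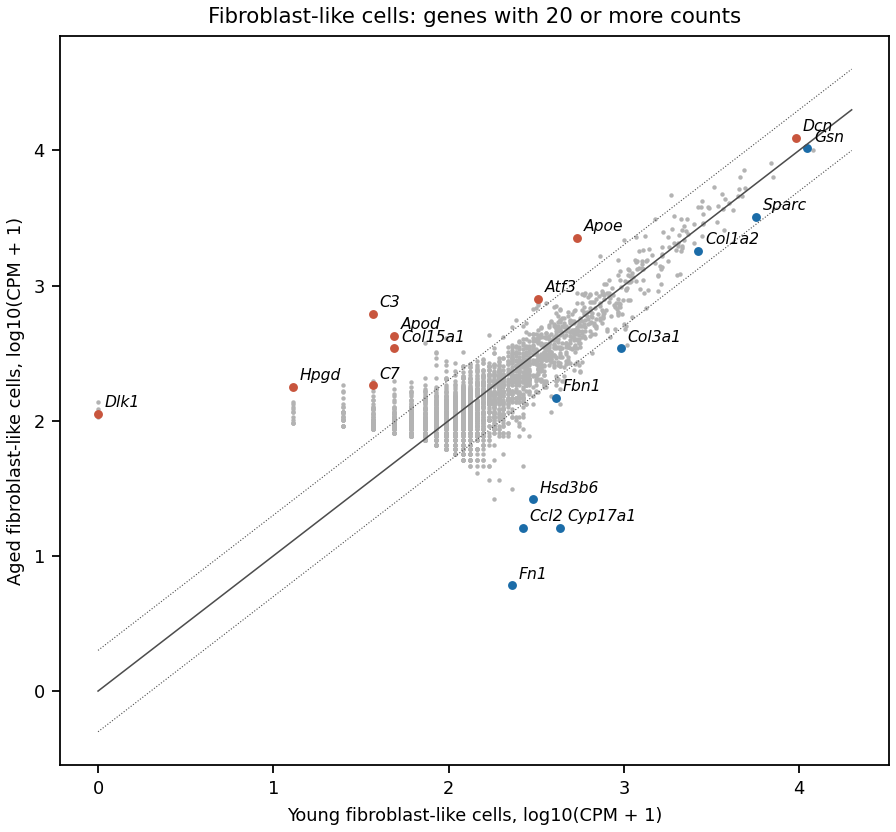
Each gray point is a gene with 20 or more counts over the fibroblast-like cells of both libraries, by its log10(CPM + 1) in young and aged cells. The solid line marks equality and the dotted lines 2-fold. Red points are named genes higher in the aged cells and blue points named genes lower in them; C3, Apod, Col15a1 and Apoe lie above the upper line, and Fn1, Ccl2, Cyp17a1, Hsd3b6, Col3a1 and Fbn1 below the lower line.

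C3, the central complement protein (GRCm38 chromosome 17, 57203970 to 57228136), gave 3 counts in 2 of 18 young cells and 122 counts in 50 of 127 aged cells, 36.1 (7.44 to 105) and 615 (511 to 734) CPM, a ratio of 17.0 (5.70 to 83.8). Its promoter window is shown above. Per 10000 counts of a cell, the young values ran from 0 to 3.34 and the aged values from 0 to 145, with a median of 0 at each age, so the ranges overlap at 0 and the high values are in the aged library. In the aged cells, with a median total of 1421 counts against 4526.5, a single count gives a higher value, and there are more aged cells. The highest values are therefore not compared at equal depth. Without the aged cell with most C3 counts, 16, the ratio was 14.9. When both libraries were held to 3215 counts or more, 4 aged counts were left and the ratio was 4.58 (0.775 to 31.3). That interval holds both equality and 17.0. Thinned to 500 counts, 1.46% of young and 20.9% of aged cells would hold C3, while 1.12% and 0.869% of Leydig-like and 0.840% and 1.56% of macrophage-like cells would. In Leydig-like cells C3 was at 25.8 and 17.3 CPM. C7, of the terminal complement complex, was at 36.1 and 181 CPM, a ratio of 5.03 (1.59 to 25.5), and in Leydig-like cells at 143 and 196. The other 5 complement genes tested did not reach 2-fold, among them Serping1 with a ratio of 1.38 (1.23 to 1.55), which was 2.03 (1.71 to 2.39) when both libraries were held to 3215 counts or more. The list summed to 7201 and 9535 CPM, a ratio of 1.32 (1.21 to 1.45), and its median log2 ratio was 0.00 against -0.08 over all genes.

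Of 14 secreted and lipid-binding genes tested, 3 were at least 2-fold higher in the aged cells and 0 lower, beside 5.96% and 5.64% of all genes tested. Apoe, a carrier of lipids, was at 541 (395 to 724) CPM in young and 2263 (2058 to 2482) CPM in aged cells, a ratio of 4.18 (3.07 to 5.82). Counts of it were present in 12 young cells of 18 and 100 aged cells of 127. The Leydig-bearing pair held 16 of the 45 young counts, and without the 3 cells the ratio was 5.66. When both libraries were held to 3215 counts or more the log2 ratio of Apoe went from 2.05 to 0.89. In Leydig-like cells Apoe was at 1033 and 659.8 CPM and in macrophage-like cells at 4786 and 14629.8, lower in aged Leydig-like and higher in aged macrophage-like cells. The macrophage marker list was at 24.0 and 5.04 CPM in the fibroblast-like cells, with C1qa, C1qb, C1qc, Csf1r and Adgre1 at 0. These 5 are the genes of the macrophage limit, so their low counts follow in part from the choice of cells. The part of free RNA in the Apoe level was not tested. Apod, which carries small lipids, was found in 2 young and 25 aged cells, at 48.1 (13.1 to 123) CPM in young and 423 (338 to 524) CPM in aged cells, a ratio of 8.80 (3.31 to 33.1). A single aged cell held 24 of its 84 counts, and without it the ratio was 6.41. That cell is among the 6 of 3215 counts or more, where the ratio was 35.2 (12.8 to 135). Leydig-like cells had 0 counts of Apod. Gpx3, a secreted glutathione peroxidase, was at 240.4 and 559 CPM, a ratio of 2.33 (1.44 to 3.96).

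Other genes at the top of the ratios rested on few young counts. Col15a1, a collagen of the outer basement membrane, gave 4 counts in 3 young cells and 68 in 30 aged cells, 48.1 and 343 CPM, a ratio of 7.13 (2.66 to 26.9). When both libraries were held to 3215 counts or more, 1 aged count was left and the ratio was 0.859 (0.0174 to 8.68). That interval holds both equality and 7.13, so this setting cannot decide. Hpgd, which inactivates prostaglandins, gave 1 and 35 counts, a ratio of 14.7 (2.47 to 596). H2-T23, a nonclassical MHC class I gene, gave 1 and 26 counts, a ratio of 10.9 (1.79 to 447), and Cc2d2a, of the ciliary transition zone, 1 and 27, a ratio of 11.3 (1.87 to 463). Aox3, Man2b2, Dlk1 and Cnot1 had 0 young counts and 27, 24, 22 and 21 aged counts. Against a floor of 3 counts over the young cells, they were at least 3.77, 3.35, 3.07 and 2.93 times higher. The 22 counts of Dlk1, a Notch-like protein of immature cells, lay in 5 of 127 aged cells, while those of Aox3, an aldehyde oxidase, were spread over 23. In the 6 aged cells of 3215 counts or more, Dlk1 had 0 counts, Aox3 2, Cnot1 4 and Man2b2 5.

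**Figure D5:**
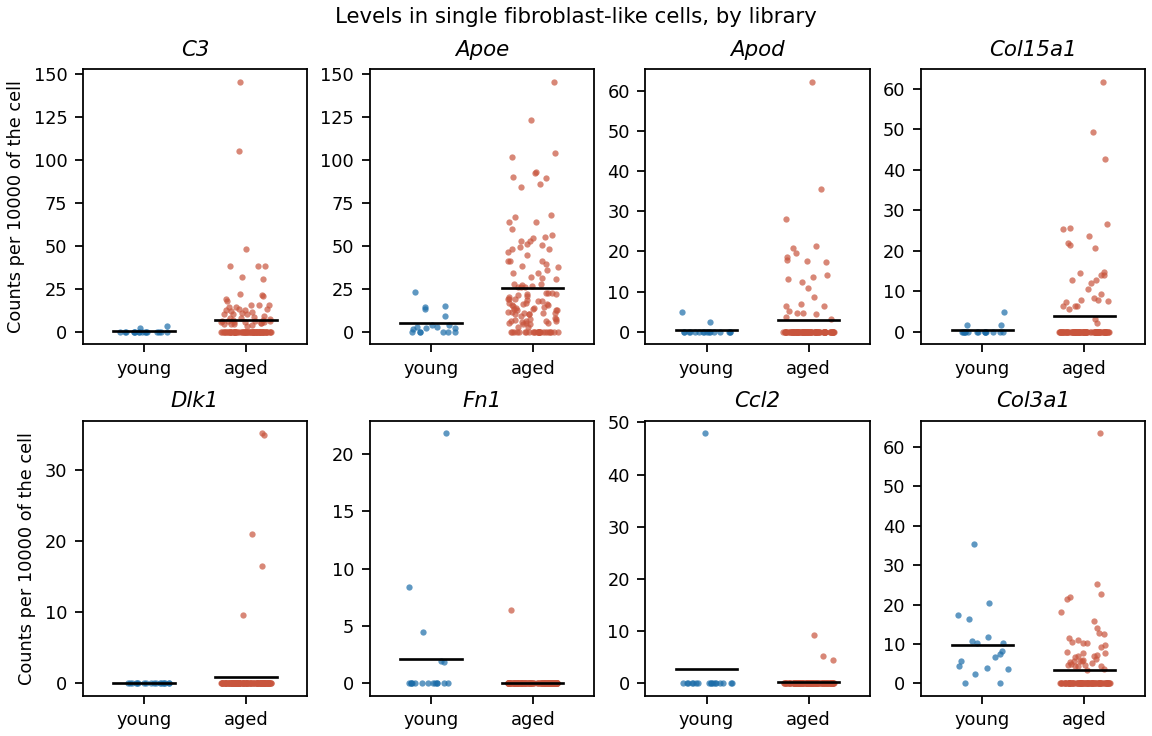
Points are single fibroblast-like cells, young in blue and aged in red, as counts per 10000 counts of the cell, and the black line is the mean over cells of a library. C3, Apoe, Apod and Col15a1 have their high cells in the aged library, where most cells are shallower and 1 count gives a higher value. Dlk1 rests on 5 aged cells, Fn1 on 5 young cells and 1 aged cell, and the young Ccl2 value on 1 cell. The values of Col3a1 overlap between the ages.

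At the lower end, Fn1 stood first. Fibronectin, its product, is an adhesive glycoprotein of the matrix. Fn1 gave 19 counts in 5 of 18 young cells, 10 of them in 1 cell, and 1 count in the aged cells, 228 (138 to 357) and 5.04 (0.128 to 28.1) CPM, and was 45.3 (7.2 to 1883) times lower in the aged library. Without the young cell of 4588 counts it was 22.7 times lower. Ccn1, another matricellular gene, was at 1046 (838 to 1290.1) CPM in young and 363 (284 to 457) CPM in aged cells, 2.88 (2.08 to 4.0) times lower. Fbn1, the microfibril protein fibrillin-1, was at 409 (283 to 571) CPM in young and 146 (97.9 to 209.9) CPM in aged cells, 2.80 (1.65 to 4.76) times lower, and 1.65 times lower without that same cell, which held 15 of its 34 counts. When both libraries were held to 3215 counts or more, the log2 ratio of Fbn1 went from -1.48 to -0.08, while Ccn1 stayed at -1.42.

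Ccl2, a chemokine that draws monocytes, was 17.5 (5.26 to 91.3) times lower in the aged cells. All 22 young counts lay in the same cell of 4588 counts, and without it the young cells had 0 counts and the aged cells 3, so the difference is that of 1 cell. Several of the other genes at the lower end are Leydig transcripts. Cyp17a1 was 28.6 (9.04 to 145) times and Hsd3b6 11.9 (4.48 to 39.9) times lower in the aged cells. Without the 3 Leydig-bearing cells, Cyp17a1 had 2 counts at each age and Hsd3b6 had 1 young and 5 aged counts, and the direction of Hsd3b6 turned. Without those cells, Msmo1, of cholesterol synthesis, went from 7.55 to 2.28 times lower, Nr5a1, which encodes steroidogenic factor 1, from 7.16 to 3.83, Defb19 from 5.83 to 2.43 and Tst from 5.45 to 1.96. Cnih1 and Ppp1r14b kept most of their difference, at 4.69 and 3.83 times lower.

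Col1a1, Col1a2, Col3a1, Col6a1 and Col6a2 were lower in the aged cells when all cells were summed. Col3a1 was 2.81 (2.01 to 3.94) times lower, Col6a2 1.99 (1.31 to 3.01), Col1a2 1.48 (1.24 to 1.75), Col6a1 1.42 (1.02 to 1.97) and Col1a1 1.35 (1.01 to 1.81) times lower. Of 4 fibrillar collagen genes tested, 1 was at least 2-fold lower and 0 higher, with a median log2 ratio of -0.50, and the list's sum had a ratio of 0.638 (0.561 to 0.727). Col1a1, Col1a2, Col3a1 and Sparc are genes of the rule, and Sparc was 1.76 (1.56 to 1.98) times lower while Dcn was higher, so the direction was not shared by all genes of the rule. The 9 collagen processing genes tested had a median of -0.63, with 0 past 2-fold in either direction. Without the Leydig-bearing cells 1 of 8 was lower, Loxl2, and with a mean over cells 1 of 9 was higher and 2 were lower. Among them Plod2, a collagen lysyl hydroxylase, was 1.84 (0.919 to 3.63) times and the crosslinking enzyme gene Loxl2 1.87 (0.770 to 4.44) times lower, or 2.15 times without the Leydig-bearing cells. Col6a2 was 2.18 times lower without them. These differences changed with the total required of a cell. With the 6 aged cells that reach the lowest young total, the log2 ratios of Col1a2, Col1a1 and Col6a1 turned to 0.49, 0.83 and 0.10, and those of Pcolce, Adamts2, Serpinh1 and Loxl2 to 0.53, 0.26, 0.036 and 0.065. Col3a1 and Col6a2 stayed lower, at -1.16 and -0.64.

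The other lists had few genes past 2-fold, and over all genes tested 5.96% were higher and 5.64% lower. Of 10 basement membrane genes tested, 1 was at least 2-fold higher (Col15a1) and 1 lower, Lama4, at 252 and 106 CPM and 2.39 (1.24 to 4.59) times lower. None of 5 proteoglycan, 6 protease, 5 surface, 12 transcription factor, 4 retinoid and 4 growth factor genes reached 2-fold, counted by size alone, and their median log2 ratios were 0.00, 0.08, -0.29, -0.07, 0.01 and -0.39. Without the Leydig-bearing cells 1 of 5 surface genes was lower, Pi16, from 1.81 to 2.08 times. When both libraries were held to 3215 counts or more, 2 of 3 retinoid, 1 of 3 growth factor and 1 of 4 surface genes were at least 2-fold lower, and 1 of 5 proteoglycan and 1 of 2 protease genes higher. Igf1 was 1.86 (1.35 to 2.54) times lower, and 3.08 (1.42 to 7.91) times in that setting. Of 9 matricellular genes, 2 were at least 2-fold lower (Fn1, Ccn1), and of 7 elastic fibre genes 1 (Fbn1). Of 8 TGF-beta and BMP genes, 1 was at least 2-fold higher, Bmpr1a, with 3 and 19 counts and a ratio of 2.66 (0.782 to 14.0), and of 4 Hedgehog genes 1, Ptch1, with 3 and 21 counts and a ratio of 2.93 (0.876 to 15.4). The intervals of both hold equality. Of 5 chemokine genes 1 was lower (Ccl2), while Cxcl1 was 1.93 (1.19 to 3.11) times lower.

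Immediate early genes leaned higher in the aged cells, with 5 of 18 at least 2-fold higher, 1 lower and a median log2 ratio of 0.45. Over all genes tested 5.96% were higher and 5.64% lower, with a median of -0.08. Atf3 was at 325 and 796 CPM, a ratio of 2.45 (1.62 to 3.84), and the heat shock gene Hspa1b at 120.2 and 323 CPM, a ratio of 2.68 (1.37 to 5.86). Fosb, Nr4a1 and Hspa1a had ratios of 2.06, 2.28 and 2.19, and Klf6 was 2.08 times lower. Without the 3 Leydig-bearing cells 2 of 18 were at least 2-fold higher, and when both libraries were held to 3215 counts or more 1 of 18 was, with a median of 0.03. The sum of the list was also higher in aged Leydig-like cells, at 10285 and 13903 CPM. The 7 interferon and MHC class I genes tested had a median of 0.41 with 0 past 2-fold. When both libraries were held to 3215 counts or more, 4 of 6 were at least 2-fold higher, with a median of 1.06. Over all cells their sum had a ratio of 1.29 (1.14 to 1.46). H2-D1 was at 541 and 882 CPM, a ratio of 1.63 (1.17 to 2.32), and B2m at 1382 and 1865 CPM, a ratio of 1.35 (1.09 to 1.68). The cell cycle inhibitor gene Cdkn1a was at 409 and 433 CPM, a ratio of 1.06 (0.705 to 1.63).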

How the data were processed

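Cells of mouse testis were measured in 2 libraries, 1 per age, grouped by the age in the labels. The authors deposited 1 table per library of whole-number counts per gene and cell, with no normalization. Per the file headers, BD's Rhapsody pipeline (1.7.1) with STAR (2.5.2b) made the aged table. Cell Ranger 2.11 and mm10 are named per the submitters' processing notes. Which of them made the young table, how cells were called and whether molecules or reads were counted are not given in the sources used here. The 36245 gene columns that both tables share enter the age comparison. In summed levels a gene missing from a table counts as 0. Cells needed at least 500 counts, 200 genes and at most 25% mitochondrially encoded counts. The filter left 2770 of 2771 young cells, with 53408384 counts in all (median 16585 a cell), and 5812 of 6823 aged cells, with 65688041 counts (median 11384.5). Doublets were kept; Scrublet in scanpy 1.11.5 called 38 young (1.37%) and 121 aged cells (2.08%), of which 0 and 1 were fibroblast-like. Counts were summed per class and library and given as CPM with exact 95% intervals (Python 3.11.15, numpy 2.4.6, scipy 1.17.1, pandas 2.3.3). Log2 ratios used 0.5 added to each count, a fold against 0 counts used a floor of 3 counts over the class, and thinned shares are expected values at 500 counts a cell. Genes past 2-fold are counted by size, with no p-value, among genes with 50 or more counts (identity) or 20 or more over both libraries (age). Interval code was tested on simulated data. Coordinates are from GENCODE M21, promoters from RefSeq. The members, the 31 gene lists and the rules were chosen with earlier results of these data known. Named are the rule genes and markers, the 15 highest and 5 lowest identity genes, the 10 highest and 10 lowest age ratios with an interval off equality, and of each list the 4 most abundant members in aged cells and the 2 furthest from equality. The pairs of genes compared for their presence in the same cells, and Tcf21, Gata4, Fmod, Aspn, Podn, Mmp2, Thy1, Dpp4, Cd44, Pdgfrb, Gpx3, Fosb, Nr4a1, Hspa1a and Klf6, were chosen after their values were seen. A few genes that the rule names are not reported here. Alternatives changed the rule share, cell total, mitochondrial limit, doublets, cells with germ or smooth muscle transcripts, averaging and count minimum. Removal of the 3 Leydig-bearing cells, of the top cell of a gene, and centring were alternatives chosen after seeing the data.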

Additional observations from a re-analysis of the deposited data

Results flagged for a closer look

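Of 68 genes, those named for age and those of the collagen lists, 11 had an aged to young ratio in Leydig-like cells on the other side of 1 from that of fibroblast-like cells, with both intervals off equality. The difference between the classes was not tested, since each age has 1 library. C3 was 17.0 (5.70 to 83.8) times as high in aged fibroblast-like cells, and its ratio in Leydig-like cells was 0.672. Hpgd had 14.7 (2.47 to 596) and 0.727, and H2-T23 10.9 (1.79 to 447) and 0.716, from 1 young count each in fibroblast-like cells. Ccl2 went the opposite way, 17.5 (5.26 to 91.3) times lower in aged fibroblast-like cells and with a ratio of 19.8 in Leydig-like cells, but its 22 young fibroblast-like counts came from 1 cell. Msmo1 was 7.55 (2.90 to 23.1) times lower in aged fibroblast-like cells, with a ratio of 1.2 in Leydig-like cells, and 14 of its 19 young counts lay in the Leydig-bearing pair. Apoe (4.18 (3.07 to 5.82)) and Dcn (1.29 (1.19 to 1.40)), a gene of the rule, were higher in aged fibroblast-like cells, with Leydig-like ratios of 0.638 and 0.308. Ccn1, Cxcl1, Col6a1 and Serpinh1 were 2.88 (2.08 to 4.0), 1.93 (1.19 to 3.11), 1.42 (1.02 to 1.97) and 1.71 (1.01 to 2.86) times lower, with Leydig-like ratios of 4.42, 3.84, 2.09 and 1.54. Without the young cell with most of its counts, Cxcl1 was 1.26 times lower.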

How the results depend on the processing

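With 1 library per age no library could be left out. No paired analysis was possible because each age has 1 library and no result comes from a test. The aged share of 2.19% was 1.7% with at least 1000 counts and 0.144% with the lowest young total in both libraries, where 19 in place of 171 identity genes in the aged library and 71 in place of 166 genes higher in aged cells were past 2-fold. Without a minimum count, 3383 young and 3370 aged genes were past 2-fold in identity, in place of 71 and 171. With 50 or more counts, 31 genes were higher and 27 lower in aged cells, in place of 166 and 157. At the lowest young total the log2 age ratio turned for Col1a2 (0.49), Col1a1 (0.83), Col6a1 (0.10), Pcolce (0.53), Adamts2 (0.26), Serpinh1 (0.036), Loxl2 (0.065), Pi16 (0.20), Id3 (-0.23) and Gbp2 (0.50), with 6 aged cells left. Rspo1 turned to 0.039 with at least 1000 counts. Col6a3, from 4 and 11 counts, turned to -0.13 with a rule share of 1%, -0.12 with a mean over cells and -0.10 without the Leydig-bearing cells. A gene with under 10 counts over both libraries in a setting was given no value here, as Cyp17a1 and Hsd3b6 without the Leydig-bearing cells and C3, Col15a1, Dlk1 and Hpgd at the lowest young total. Of 729 values for 68 age genes, 699 were called the same, 16 moved and 14 turned. Of 180 values for 20 identity genes, 161 were called the same, 19 moved and 0 turned. A value called the same could still shrink: at the lowest young total the log2 age ratio of Mmp14 went from -0.78 to -0.003. All 19 moved identity values, and most of the moved or turned age values, came from that setting. Removing called doublets, or cells with spermatid or smooth muscle transcripts, each left 126 of 127 aged cells, so those settings could change little. Counts of 1 to 3 in the 18 young cells limit the ratios of C3, C7, Hpgd and H2-T23.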

Other observations

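Other members of the lists showed how far the division between the classes went. Pltp, a phospholipid transfer protein, was at 2139.8 and 2570.3 CPM here, 12.9 and 19.0 in Leydig-like and 1236 and 1885 in macrophage-like cells. Igfbp4, a partner of the Igf proteins, was found at 1984 and 1835 CPM against 12.8 and 32.1 in Leydig-like cells, while Igfbp7, found in vessels and stroma, was at 2524 and 2853 CPM against 2527 and 1678. Tnxb, which encodes the matrix glycoprotein tenascin-X, gave 16 young and 27 aged counts and 0 in Leydig-like and macrophage-like cells. Nid1, a basement membrane linker, was at 349 and 287 CPM against 1.67 and 0.982 in Leydig-like cells, and Hspg2, perlecan, at 457 and 247 CPM against 11.2 and 7.2. These genes belong to the lists and were picked here after their values had been seen.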
